A study of Rattus norvegicus with 12 samples.

Results

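Cytosolic sulfotransferases were described in the livers of 12 male Wistar rats, a commonly used outbred laboratory strain, through the array's probe sets for 7 genes: Sult1a1, Sult1b1, Sult1c2, Sult1c3, Sult1e1, Sult2a1 and Sult2a2. Every probe set that the platform annotation gives to 1 of these symbols was taken, which left 7 probe sets, 1 per gene, of the 20826 probe sets with 1 gene symbol. A further probe set that the annotation gives to Sult1c2 together with another gene was left out. The rats were 5 weeks old per the labels, which do not say at which step of the experiment. All received the AIN93G purified diet for 4 days and were then fed for 11 days on that diet with 20% maple syrup (6 arrays) or with 20% of a sugar mix syrup of similar sugar composition (6 arrays). All were fasted for 16 hours before the liver was taken. The labels give 7 rats fed maple syrup and 8 fed the sugar mix, and the animals beyond the 12 arrays were not analysed here.

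Cytosolic sulfotransferases move a sulfonate group from the donor PAPS to a hydroxyl or amino group of a steroid, a hormone, a bile acid or a drug, which makes the product more soluble in water. PAPS itself is made from sulfate and ATP by the PAPS synthases. In rat liver several of these enzymes differ between the sexes because of the pattern in which growth hormone is secreted. Pulses, the male pattern, maintain Cyp2c11 and other male-biased genes, whereas the steadier female pattern maintains Cyp2c12. Sult1c3 and Sult1e1 are known as male-biased in rat liver, and the Sult2a enzymes as female-biased. Cyp2c11 and Cyp2c12, 2 cytochrome P450 genes, were therefore used as readouts of growth hormone action.

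The deposited value is a processed score whose levels resemble log2 intensities, while differences between animals are far smaller than log2 intensities would give. No fold is given for that reason. Each liver is placed by its distance from the mean of the 12 livers, in standard deviations of that probe set (SD units). A diet difference is given as Hedges' g, the maple syrup mean less the sugar mix mean, divided by the SD between animals within a diet. The fixed hepatocyte markers, 7 of 8 measured, had levels from 11.35 to 15.21, and 5 kidney and gut genes not expected in liver had levels from 5.82 to 8.95. The means of the 7 sulfotransferase probe sets were 6.23 for Sult2a1, 7.80 for Sult1c2, 10.40 for Sult2a2, 11.47 for Sult1e1, 12.61 for Sult1a1, 12.69 for Sult1c3 and 13.51 for Sult1b1. The brightness of a probe set depends on its probes, so these levels do not rank the transcripts by amount. The scores of the Sult2a1 and Sult1c2 probe sets lay within the range of the kidney and gut genes, and detection calls were not used here, so whether these probe sets measured transcript was not tested. Sult2a2 had an SD over the 12 livers of 0.0515 score units, Sult1e1 of 0.0140 and Sult1c2 of 0.0113. The SDs of 5 of the 7 probe sets lay above the 95th percentile of all probe sets. Sult1b1 and Sult2a1, at the 69.0 and 62.4 percentile, had SDs of 1.50e-05 and 1.15e-05. How far compression of the score and variation between animals each set these spreads was not tested.

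None of the 7 genes passed the test between the diets after adjustment over all probe sets. Sult1c3 had the largest g of the 7 and was the one gene whose 95% interval did not include 0. With limma and Benjamini-Hochberg adjustment 0 of 7 members were called, as were 0% of all probe sets in either direction. At an unadjusted limma p of 0.05, 1 member (Sult1c3) would be counted, where 4.19% of all probe sets were (2.08% higher and 2.11% lower with maple syrup). An exact permutation of the animals also gave 0 calls after adjustment, with 2.06% of probe sets higher and 2.02% lower at an unadjusted exact p under 0.05. Sult1c3 was again the 1 member among them. The diets overlapped in all 7 members (0 without overlap), where 0.0384% of probe sets were higher and 0.0528% lower with maple syrup without overlap. The g was above 0 in 3 members and below 0 in 4, with a median of -0.07 against -0.02 over all probe sets. Because liver tissue was measured as a whole, fewer cells of a type and less RNA per cell cannot be told apart.

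**Figure D1:**
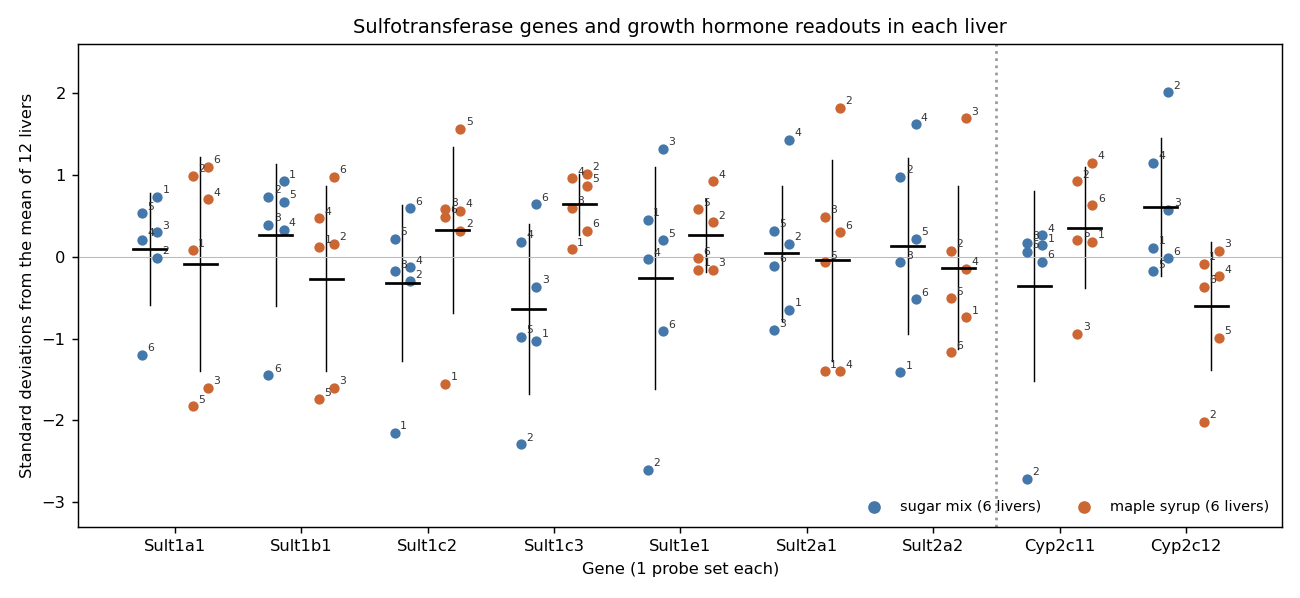
Distance of each liver from the mean of 12 livers, in standard deviations of the probe set, for 7 sulfotransferase genes and the readouts Cyp2c11 and Cyp2c12. Points are livers with their replicate number, horizontal lines are the means of 6 livers per diet and vertical lines are 1 SD. Sugar mix replicate 2 is the lowest point for Sult1c3 (-2.29), Sult1e1 (-2.60) and Cyp2c11 (-2.71) and the highest for Cyp2c12 (2.01).

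Sult1a1 and Sult1b1 encode phenol sulfotransferases, which act on small phenols and thyroid hormones. With the sugar mix, Sult1a1 had its lowest liver at -1.20, its median at 0.25 and its highest at 0.73 SD units. With maple syrup the same 3 values were -1.83, 0.39 and 1.10. The diets overlapped throughout, and g was -0.16 (95% interval -1.20 to 0.89, n = 6 per diet; limma adjusted p = 1.00, exact permutation p = 0.810). Sult1b1 ran from -1.45 through a median of 0.53 to 0.92 with the sugar mix and from -1.74 through 0.14 to 0.98 with maple syrup. Its g was -0.49 (95% interval -1.54 to 0.59; exact permutation p = 0.303) and -0.0104 with each array centred on its median. The sign of g for Sult1a1 turned without maple syrup replicate 3 (0.11) or maple syrup replicate 5 (0.17), 2 of the livers that were low for both genes.

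The same 3 livers stood low for Sult1a1 and Sult1b1, although the genes lie on different chromosomes. Sugar mix replicate 6 was at -1.20 for Sult1a1 and -1.45 for Sult1b1. Maple syrup replicate 3 was at -1.60 for both genes, and maple syrup replicate 5 at -1.83 and -1.74. The other 9 livers lay between -0.01 and 1.10 for Sult1a1 and between 0.12 and 0.98 for Sult1b1. The Pearson correlation of the genes over the 12 livers was 0.93 (Spearman's rho 0.73), the highest of the 21 pairs of members, which ran down to -0.55 with a median of 0.02. Among the other 9 livers alone it was 0.33, a split chosen after the values were seen, so the correlation over all livers rests on the 3 low ones. The 12 livers spanned only 4.08e-05 score units for Sult1b1, less than the array medians, which lay between 7.36619 and 7.36632. This correlation was not recomputed with the arrays centred on their medians, and the part of such array offsets in it was not tested. The 3 genes most like Sult1a1 were Glrx, the glutaredoxin that reduces protein disulfides with glutathione (r = 0.98), Mfsd3 (r = 0.97), and Gpt2, the mitochondrial alanine aminotransferase (r = 0.96). Those most like Sult1b1 were Ptdss2, a phosphatidylserine synthase (r = 0.95), Arg1, the arginase of the urea cycle (r = 0.95), and Ssu72 (r = 0.94). These likenesses are over the same 12 livers and carry the same 3 low animals, and for Sult1a1 22 probe sets had an absolute r over 0.9. Nr1i3, the nuclear receptor CAR that controls many conjugating enzymes, had r = 0.80 with Sult1a1, which 0.917% of probe sets reached in absolute size. The array's 9 control probe sets for beta-actin, GAPDH and hexokinase had r from 0.11 to 0.62 with Sult1a1, and their part in this pattern was not tested.

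Sult1c2 and Sult1c3 encode sulfotransferases of the 1C subfamily, of which Sult1c3 is known in rat liver for activating carcinogenic N-hydroxy arylamines. They lie near each other on the same chromosome, with 1 protein-coding gene, Sult1c2al1, between them in RefSeq's gene table. Sult1c3 ran from -2.29 through a median of -0.67 to 0.64 SD units with the sugar mix and from 0.09 through 0.73 to 1.01 with maple syrup. All maple syrup livers thus lay above the mean of the 12 animals and within a narrow band (mean 0.64 ± 0.37, SD, n = 6). The sugar mix livers spread more widely (mean -0.64 ± 1.03, SD, n = 6), and 4 of them lay below every maple syrup liver. Setting every maple syrup liver against every sugar mix liver, the former was higher in 32 of 36 cases. Hedges' g came to 1.52 (95% interval 0.26 to 2.73) with an exact permutation p of 0.0152 before adjustment, but the adjusted p was 1.00 in limma and 1 for the exact permutation. The diet means were 12.694477 with maple syrup and 12.694052 with the sugar mix in the deposited score. With any 1 array left out, g of Sult1c3 lay between 1.37 and 2.09, and under quantile normalization of the arrays it was 0.53.

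Sult1c2 was set apart by 1 low liver in each diet. It ran from -2.15 through a median of -0.15 to 0.59 with the sugar mix and from -1.55 through 0.52 to 1.56 with maple syrup. Replicate 1 was the lowest liver in both groups, and the next lowest of all was at -0.30. The labels do not say that a replicate number is shared between the diets. The g was 0.61 (95% interval -0.48 to 1.67; exact permutation p = 0.299). With the replicate number as a block, the diet difference over the residual SD of that fit was 1.69, with a limma adjusted p of 1.00. That SD leaves out spread shared by a replicate number, so the value is not the same measure as g. Sult1c2 and Sult1c3 had r = 0.52 over the 12 livers. Sult1c2a, another gene of the subfamily on the same chromosome, had r = 0.54 with Sult1c2 and 0.12 with Sult1c3. Without both replicate 1 livers these were 0.16 and 0.0278, and r of Sult1c2 with Sult1c3 was 0.65. The genes most like Sult1c2 were Arhgef12 (r = 0.94), Kif16b, a kinesin (r = 0.92), and Pon1, the paraoxonase carried on high-density lipoprotein (r = 0.90). For Sult1c3 they were Gphn, gephyrin (r = 0.91), Rb1, the retinoblastoma protein (r = 0.90), and Nr1d2, the circadian repressor REV-ERB beta (r = 0.90).

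Sult1e1 encodes the estrogen sulfotransferase, which inactivates estradiol and estrone. It ran from -2.60 through a median of 0.08 to 1.32 SD units with the sugar mix and from -0.16 through 0.20 to 0.92 with maple syrup. The low value came from 1 liver, sugar mix replicate 2, while the next lowest liver was sugar mix replicate 6 at -0.91. The g was 0.48 (95% interval -0.60 to 1.53; exact permutation p = 0.452; limma adjusted p = 1.00). Without sugar mix replicate 2 it was 0.08. The genes most like Sult1e1, the highest in r of all genes, were Cryzl2 (r = 0.85), Chga, chromogranin A of secretory granules (r = 0.85), and Pof1b (r = 0.84). The probe sets of Chga and Pof1b had levels of 6.84 and 6.02, within the range of the kidney and gut genes. The part of sugar mix replicate 2 in these likenesses was not tested. No probe set reached an absolute r over 0.9 with Sult1e1.

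Sult2a1 and Sult2a2 encode hydroxysteroid sulfotransferases, which act on dehydroepiandrosterone and bile acids. They lie on the same chromosome as Sult2a6, a close relative that is no member of the set described here. Sult2a2 ran from -1.41 through a median of 0.08 to 1.62 SD units with the sugar mix and from -1.17 through -0.33 to 1.69 with maple syrup. In the deposited score its livers lay between 10.328 and 10.488, the widest range of the 7 members (0.160). The highest livers were maple syrup replicate 3 and sugar mix replicate 4, and the diets overlapped throughout. The g was -0.24 (95% interval -1.28 to 0.82; exact permutation p = 0.654). Its sign turned without sugar mix replicate 4 (0.0262). Sult2a1 ran from -0.90 through 0.02 to 1.43 with the sugar mix and from -1.40 through 0.12 to 1.82 with maple syrup, with a g of -0.07 (95% interval -1.12 to 0.97; exact permutation p = 0.883). Sult2a2 and Sult2a6 had r = 0.79 over the 12 livers (0.73 to 0.93 with any 1 array left out), Sult2a1 and Sult2a6 had 0.57, and Sult2a1 and Sult2a2 had 0.50. The genes most like Sult2a2 were Lao1, an L-amino acid oxidase (r = 0.91), Klc1, a kinesin light chain (r = 0.90), and Mettl8 (r = 0.90). For Sult2a1 they were Trhr, the receptor for thyrotropin-releasing hormone (r = 0.95), Midn (r = 0.90) and Klk8, a serine protease (r = 0.87). The probe sets of Trhr and Klk8 had levels of 6.10 and 6.64.

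**Figure D2:**
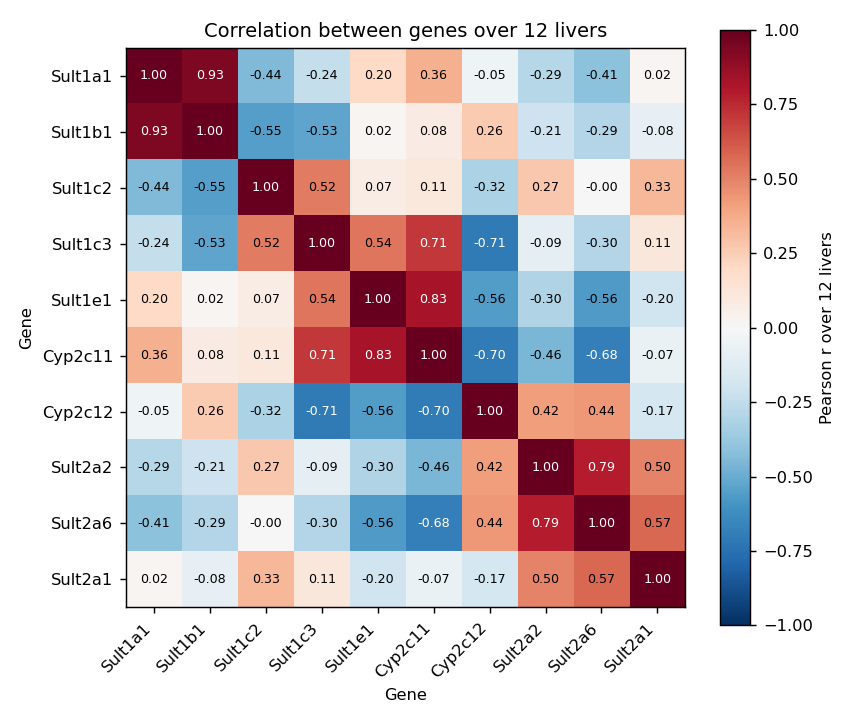
Pearson correlation over 12 livers between the 7 sulfotransferase genes, Sult2a6, Cyp2c11 and Cyp2c12, each by 1 probe set. Red is positive and blue is negative on a scale from -1 to 1. Sult1a1 with Sult1b1 (0.93), Sult1e1 with Cyp2c11 (0.83) and Sult2a2 with Sult2a6 (0.79) are the highest of the pairs shown.

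The 250 bases before a transcript start of the 3 Sult2a genes are shown because Sult2a2 and Sult2a6 varied together and the genes are close relatives. The sequences are RefSeq's, build GRCr8, all on the minus strand, and run 5′ to 3′ toward the transcript start that RefSeq's promoter table uses. For Sult2a1 that start lies 54 bases inside the outer end of the annotated gene, and for Sult2a2 and Sult2a6 at it (0). Capitals mark GTTAAT, the core letters of sites for the liver factor HNF1. Sult2a2 is at chr1:85104533-85104782, Sult2a6 at chr1:84097809-84098058 and Sult2a1 at chr1:84638948-84639197.
Sult2a2: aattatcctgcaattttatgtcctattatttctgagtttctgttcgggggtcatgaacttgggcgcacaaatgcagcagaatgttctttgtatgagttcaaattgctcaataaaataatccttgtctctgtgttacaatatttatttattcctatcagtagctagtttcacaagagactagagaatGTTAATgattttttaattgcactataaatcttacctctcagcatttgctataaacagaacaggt
Sult2a6: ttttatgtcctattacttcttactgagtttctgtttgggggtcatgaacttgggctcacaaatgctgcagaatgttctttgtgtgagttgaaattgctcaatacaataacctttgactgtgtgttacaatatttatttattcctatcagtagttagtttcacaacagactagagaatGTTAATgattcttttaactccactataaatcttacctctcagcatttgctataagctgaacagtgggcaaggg
Sult2a1: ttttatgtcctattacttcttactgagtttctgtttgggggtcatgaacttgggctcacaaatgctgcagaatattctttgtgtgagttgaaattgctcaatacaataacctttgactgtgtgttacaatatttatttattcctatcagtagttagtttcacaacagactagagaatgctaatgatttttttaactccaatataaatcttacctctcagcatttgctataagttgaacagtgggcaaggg

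The window of Sult2a1 was identical to that of Sult2a6 at 245 of 250 bases and to that of Sult2a2 at 215 of 237 aligned bases. GTTAAT, searched on both strands, began at position -64 from that start in Sult2a2 and at -73 in Sult2a6, and was held by 6.45% of 33469 rat promoters of this length. Counted from 1 at the 5′ end of the window, Sult2a1 differs from Sult2a6 inside this motif by T179C, so the letters GTTAAT are not in its window. These windows lie before the transcript start, and transcript and probe sequences were not compared. Whether a transcript reaches the probes of a relative was therefore not tested, and the values of the 3 Sult2a probe sets are uncertain to that extent. All 7 members had a promoter in the table. The motif TTCNNNGAA of STAT5, the factor that carries the growth hormone signal to genes, was in none of the 7 windows (0) and in 7.67% of all promoters. ATTGAT, a core of HNF6 sites, was also in 0 of 7, against 7.10% of all.

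Over the 12 livers, Sult1e1 and Sult1c3 lay high where Cyp2c11 was high, and Sult1c3 lay low where Cyp2c12 was high. None of these relations passed after adjustment over all probe sets, and each was weaker without sugar mix replicate 2: r with Cyp2c11 was then 0.42 for Sult1e1 and 0.26 for Sult1c3, and r of Sult1c3 with Cyp2c12 was -0.47. Of the 14 relations of the members with the readouts, 2 with Cyp2c11 and 1 with Cyp2c12 had a permutation p under 0.05 before adjustment. Of all probe sets, 2.51% had such a p with a positive r and 3% with a negative r for Cyp2c11, and 3.52% and 3.45% for Cyp2c12. With Spearman's rho the members counted were again 2 and 1, beside 1.96% positive and 2.38% negative of all probe sets for Cyp2c11 and 4.01% and 4.11% for Cyp2c12. Without the 2 livers farthest from the median of each readout, 0 of 7 members had such a p with either, beside 2.91% positive and 3.52% negative for Cyp2c11 and 3.85% and 3.22% for Cyp2c12. No probe set on the array passed for either readout after adjustment (0%), and the smallest adjusted permutation p was 0.208 for Cyp2c11 and 0.363 for Cyp2c12. The readouts themselves ran against each other, with r = -0.70 (permutation p = 0.0191, adjusted 0.877; rho = -0.61).

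Cyp2c11 encodes a male-specific steroid hydroxylase of rat liver. It ran from -2.71 through a median of 0.10 to 0.26 SD units with the sugar mix and from -0.94 through 0.41 to 1.15 with maple syrup. Sugar mix replicate 2 was the low liver, and the other 5 of its diet lay between -0.06 and 0.26. Cyp2c12, the female-specific steroid sulfate hydroxylase, ran from -0.18 through 0.34 to 2.01 with the sugar mix and from -2.02 through -0.30 to 0.07 with maple syrup. Sugar mix replicate 2 was its highest liver and maple syrup replicate 2 its lowest. The g was 0.68 for Cyp2c11 (95% interval -0.42 to 1.75; exact permutation p = 0.255) and -1.38 for Cyp2c12 (95% interval -2.55 to -0.15; exact permutation p = 0.0152), and neither passed after adjustment (limma adjusted p = 1.00 for each).

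Sult1e1 had r = 0.83 with Cyp2c11 (permutation p = 0.0079, adjusted over all probe sets 0.835) and rho = 0.59 (permutation p = 0.0483, adjusted 1). An absolute r this high was reached by 0.158% of probe sets. With the diet means removed r was 0.81, within the sugar mix group 0.87 and within maple syrup 0.67. Without the 2 livers farthest from the Cyp2c11 median, sugar mix replicate 2 and maple syrup replicate 3, r was 0.38 (permutation p = 0.276). It was 0.42 without sugar mix replicate 2 alone and 0.85 without maple syrup replicate 3 alone. The relation thus rests mainly on sugar mix replicate 2. With Cyp2c12, Sult1e1 had r = -0.56 (permutation p = 0.0761, adjusted 0.756) and rho = -0.36. Without the 2 livers farthest from the Cyp2c12 median, sugar mix replicate 2 and maple syrup replicate 2, that r was -0.01.

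Sult1c3 had r = 0.71 with Cyp2c11 (permutation p = 0.0181, adjusted 0.877) and rho = 0.60 (permutation p = 0.0428, adjusted 1). With the diet means removed r was 0.67, and it was 0.76 within the sugar mix group and 0.36 within maple syrup. It was 0.57 without the 2 farthest livers (permutation p = 0.0781) and 0.26 without sugar mix replicate 2 alone. With Cyp2c12, Sult1c3 had r = -0.71 (permutation p = 0.0111, adjusted 0.624) and rho = -0.71 (permutation p = 0.0109, adjusted 0.480). That r was -0.51 within the sugar mix group, -0.61 within maple syrup and -0.31 without the 2 farthest livers (permutation p = 0.390). It was -0.47 without sugar mix replicate 2 alone and -0.69 without maple syrup replicate 2 alone. With the diet means removed it was -0.49 (permutation p = 0.138). This relation thus weakened about as much with the diet means removed as without sugar mix replicate 2. Both relations kept their sign in all of these subsets but weakened without sugar mix replicate 2.

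The other members lay closer to 0 with Cyp2c11 over all 12 livers. Sult1a1 had r = 0.36 (rho = 0.56) and Sult1b1 had 0.08, and without sugar mix replicate 2 these were 0.68 and 0.55. Sult1c2 had 0.11 and Sult2a1 had -0.07. Sult2a2 had r = -0.46 with Cyp2c11 (permutation p = 0.132, adjusted 0.961; rho = -0.27) and 0.42 with Cyp2c12 (permutation p = 0.176, adjusted 0.829; rho = 0.34). Without the 2 farthest livers its r was 0.05 with Cyp2c11 and 0.53 with Cyp2c12. Sult2a6 had r = -0.68 with Cyp2c11 (permutation p = 0.0108, adjusted 0.845) and -0.50 without the 2 farthest livers. With Cyp2c12, r was -0.05 for Sult1a1, 0.26 for Sult1b1, -0.32 for Sult1c2 and -0.17 for Sult2a1.

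**Figure D3:**
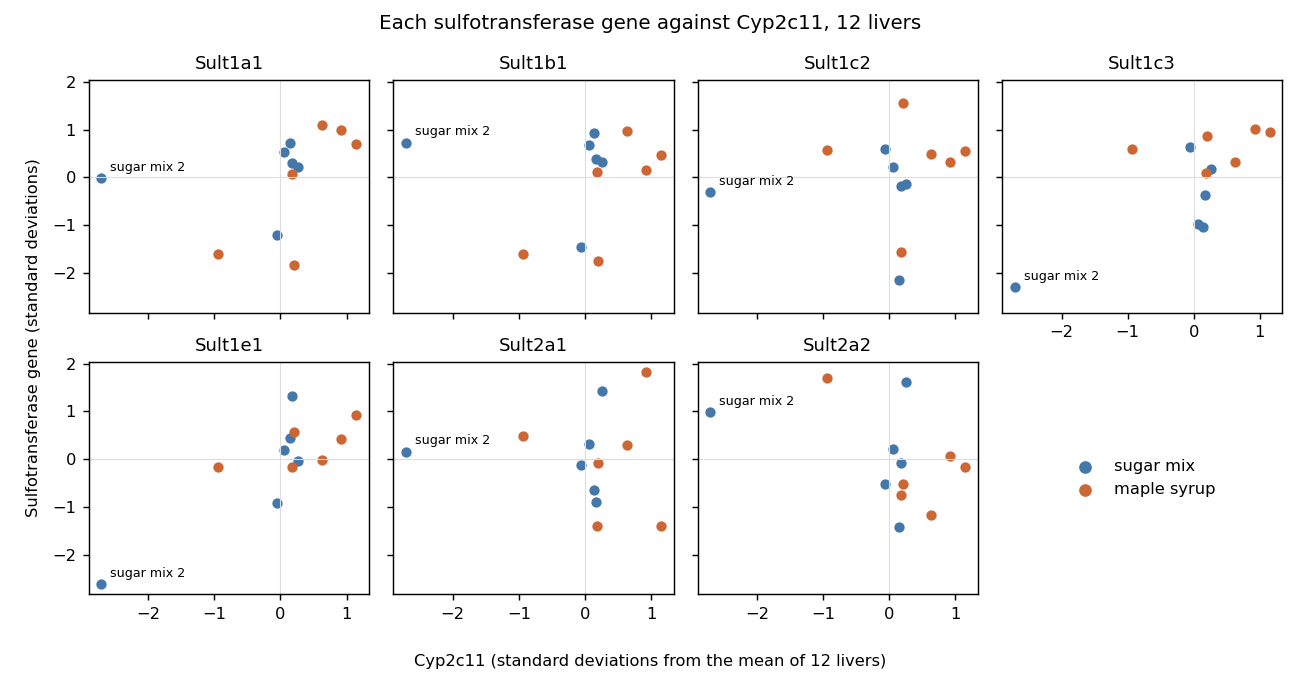
Each sulfotransferase gene (vertical axis) against Cyp2c11 (horizontal axis) over 12 livers, both in standard deviations from the mean of the 12. Points are livers by diet, and sugar mix replicate 2 is named. This liver lies at -2.71 for Cyp2c11, apart from the other 11, and is the lowest for Sult1e1 (-2.60) and Sult1c3 (-2.29) but not for Sult1a1 (-0.01) or Sult1b1 (0.73).

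The promoters of Sult1e1 and Cyp2c11 are shown because these genes had the highest correlation of any member with a readout. They are the 250 bases before the transcript start that the table uses, on the plus strand of GRCr8 in RefSeq, at chr14:20701230-20701479 and chr1:246174966-246175215. The Sult1e1 start used lies 1036 bases inside the annotated gene, so the window is itself within the gene span, whereas the Cyp2c11 window ends at the gene. Capitals mark AGGTCA, the core letters of sites for many nuclear receptors, searched on both strands, which reads TGACCT on the opposite one.
Sult1e1: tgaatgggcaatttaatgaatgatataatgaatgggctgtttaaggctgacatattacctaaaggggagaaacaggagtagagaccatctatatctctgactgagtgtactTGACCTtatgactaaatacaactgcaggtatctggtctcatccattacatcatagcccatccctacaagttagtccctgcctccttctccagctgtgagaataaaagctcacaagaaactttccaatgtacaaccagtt
Cyp2c11: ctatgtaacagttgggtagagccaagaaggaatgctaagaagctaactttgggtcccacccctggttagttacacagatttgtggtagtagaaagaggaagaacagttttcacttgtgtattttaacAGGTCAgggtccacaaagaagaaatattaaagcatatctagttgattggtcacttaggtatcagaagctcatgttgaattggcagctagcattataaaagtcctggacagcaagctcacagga

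The motif began at position -139 from the transcript start used in Sult1e1, on the opposite strand, and at -123 in Cyp2c11. It was in 1 of the 7 member windows and in 14.1% of all promoters, and is a description of these letters alone.

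The list of male-biased growth hormone readouts, Cyp2c11 among them, had all 11 of its measured members higher with maple syrup, with a median g of 0.83. All 7 measured members of the female-biased list, Cyp2c12 among them, were lower, with a median g of -0.95. Over all 14217 genes, 47.1% were higher and the median g was -0.04. No gene of either list passed limma after adjustment (0 of 11 and 0 of 7). In each list 1 gene had an unadjusted limma p under 0.05, beside 603 of all 14217 genes. The unadjusted exact permutation p was under 0.05 for Mup5, Hao2, Cyp2c13 and Cyp2c12, beside 2.06% of all probe sets higher and 2.02% lower. The lists were chosen with earlier results of these data known. The members of a list also share the same 12 livers and are not independent, so these counts are a description and no test. In sugar mix replicate 2 the mean of the male-biased list was -1.89 SD units, the lowest of the 12 livers, and that of the female-biased list was 1.08, the highest. The counts ran from 10 to 11 and from 6 to 7 with any 1 array left out. Without this liver they were 11 of 11 and 7 of 7, with median g of 0.60 and -0.81, while 48.9% of all genes were higher. Mup5, a major urinary protein, had g = 1.23 (95% interval 0.03 to 2.38), and Hao2, a hydroxyacid oxidase, had g = 1.05 (95% interval -0.11 to 2.16). Prlr, the prolactin receptor, had g = -1.005 (95% interval -2.12 to 0.15). As a description over genes of the same 12 livers, the median r with Cyp2c11 was 0.72 in the male-biased list and -0.64 in the female-biased list, against -0.05 over all genes. With Cyp2c11 itself left out, r was above 0 in 8 genes of the male-biased list and below 0 in 2. In the female-biased list it was above 0 in 1 and below 0 in 6. These medians were not recomputed without sugar mix replicate 2.

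**Figure D4:**
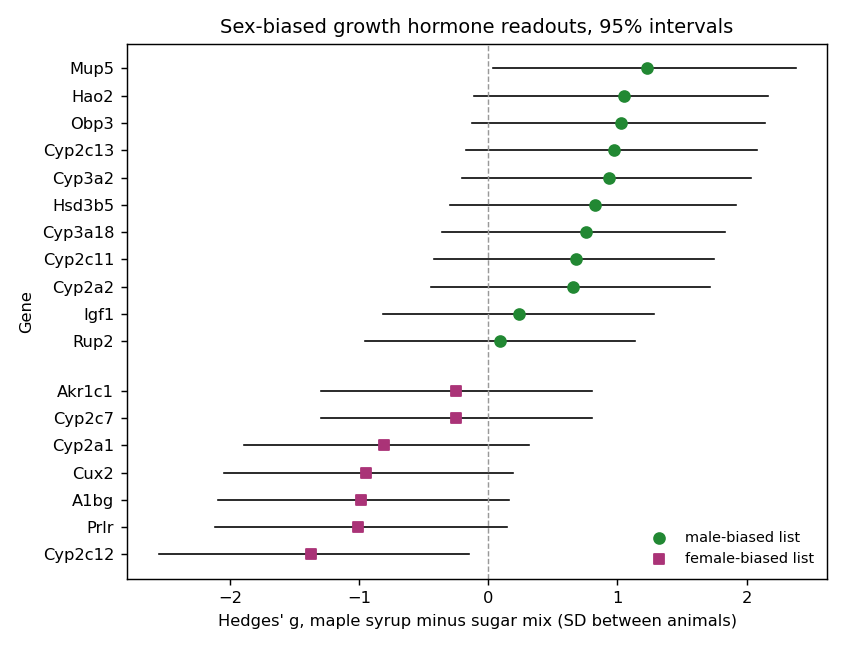
Hedges' g of maple syrup minus sugar mix (horizontal axis, in SD between animals) for the measured genes of the male-biased and female-biased lists, with 95% intervals, 6 livers per diet. The 11 male-biased genes lie above 0 and the 7 female-biased genes below 0, and the intervals of Mup5 and Cyp2c12 do not include 0.

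Marker lists and array controls were also compared in sugar mix replicate 2. The blood list, with 3 of 5 markers measured, had means of -1.75 to 1.05 SD units with the sugar mix and -0.80 to 1.28 with maple syrup, and this liver was the lowest. The Kupffer cell and macrophage list, with 6 of 8 measured, ran from -0.18 to 0.74 with the sugar mix and from -1.55 to 0.71 with maple syrup, and this liver was the highest by a small margin. The stellate and fibroblast list, with 6 of 6 measured, ran from -1.20 to 0.73 with the sugar mix and from -1.58 to 0.85 with maple syrup, and this liver was the lowest of its diet but not of all 12. The hepatocyte list was at -0.11 in this liver, sinusoidal endothelium at -0.58 and cholangiocytes at 0.33. The kidney and gut list was at 0.31, and the list of RNA handling and early response genes at -0.33. Counted from the lowest of the 12 livers, these were places 4, 2, 9, 8 and 3. The array's 5′ control probe set for hexokinase was at -2.01 in this liver and had r = 0.86 with Cyp2c11 over the 12 livers. The 3′ and middle hexokinase probe sets were at -0.85 and -0.40, with r of 0.50 and 0.40. The 3 beta-actin probe sets lay the other way, at 1.48 to 1.92 with r from -0.51 to -0.36, as did the 3 of GAPDH, at 1.23 to 1.24 with r from -0.33 to -0.28. No marker was at 0, since the lowest value in the table is 5.57. The part of these measures in the relations of Sult1e1 and Sult1c3 was not tested.

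No gene that supplies sulfate and PAPS to the sulfotransferases was called between the diets. Of 10 measured genes of PAPS and sulfate supply, 5 had g above 0 and 5 below, 0 passed limma after adjustment, and the median g was 0.0238. Papss1 and Papss2, the PAPS synthases, had g = 0.13 and 0.10, and Slc26a1, the sulfate exchanger, had g = -0.05. Bpnt1, a phosphatase that clears the spent cofactor PAP, had g = -0.94 (95% interval -2.04 to 0.20), and Slc35b3, a PAPS carrier of the Golgi, had g = 0.93 (95% interval -0.21 to 2.03). Bpnt1 had r = 0.76 with Sult1a1, and Papss2 had r = -0.60, which 1.81% and 9.15% of probe sets reached in absolute size. Papss1 had r = -0.12 and Slc26a1 had r = 0.21. In sugar mix replicate 6, maple syrup replicate 3 and maple syrup replicate 5, the livers low for Sult1a1, Bpnt1 was at -1.42, -1.48 and -1.23 SD units. Papss2 was at 0.70, 0.64 and 1.37 in these livers. The part of these livers in the correlations was not tested. Among 9 genes that make sulfate from cysteine, 5 were higher and 4 lower, and the 2 farthest from 0 were Got1 (g = -0.96), an aspartate aminotransferase, and Sqor (g = 0.86), the sulfide oxidoreductase. Of 6 genes for sulfatases and their activation, 5 were higher, with Sumf1 (g = 0.71) and Sts (g = 0.57), the steroid sulfatase, farthest from 0.

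Neighbouring groups of conjugation and control held no called gene either. For other sulfotransferases g was above 0 in 6 of the 9 measured (median 0.28), and 0 were called. Tpst2, a tyrosylprotein sulfotransferase, had g = 1.17 (95% interval -0.02 to 2.30), and Sult5a1 had g = -1.001 (95% interval -2.11 to 0.15). Among the genes of glucuronidation, the parallel conjugation pathway, g was below 0 in 7 of the 9 measured (median -0.32), and the glucuronosyltransferases Ugt2b1 (g = -0.71) and Ugt2b35 (g = -0.67) were farthest from 0. Among 11 nuclear receptors known to act on sulfotransferase genes, 8 were higher and 3 lower. Thrb, the thyroid hormone receptor beta, had g = 1.10 (95% interval -0.07 to 2.23), Nr1h4, the bile acid receptor, 0.92, Nr1i3 0.27, and Nr1i2, the xenobiotic receptor PXR, -0.46. Of 11 genes of growth hormone signalling, 5 were higher and 6 lower. Ghr, the growth hormone receptor, had g = 2.31 (95% interval 0.84 to 3.73), and Stat5a, a transducer of its signal, had g = -1.20 (95% interval -2.35 to -0.01). The r of Ghr was 0.69 with Sult1c3 and 0.57 with Sult1e1, with no p computed for either. Sugar mix replicate 2 was at -1.48 SD units for Ghr, and at -2.29 for Sult1c3 and -2.60 for Sult1e1. The part of this liver and of the diets in these correlations was not tested. None of the genes in these groups passed limma after adjustment, and the adjusted p of each was 1.00.

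**Figure D5:**
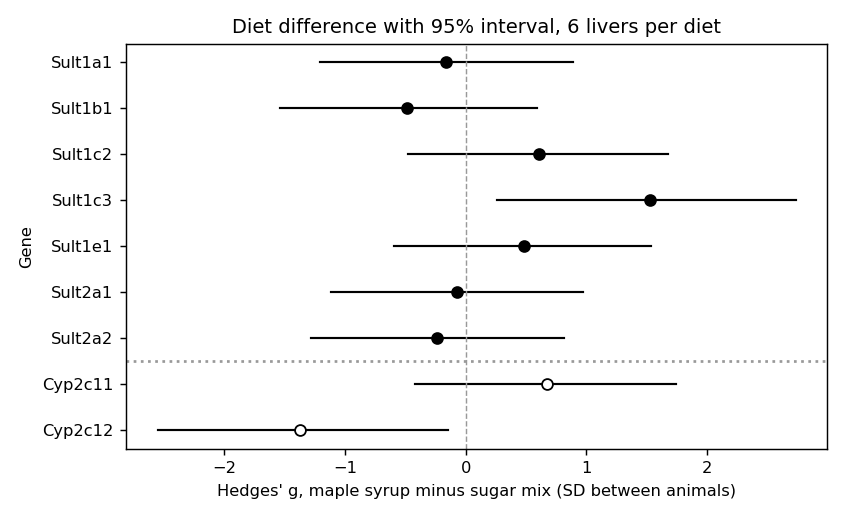
Hedges' g of maple syrup minus sugar mix (horizontal axis, in SD between animals) for the 7 sulfotransferase genes (filled) and the readouts Cyp2c11 and Cyp2c12 (open), with 95% intervals, 6 livers per diet. Among the sulfotransferases the interval of Sult1c3 (0.26 to 2.73) alone does not include 0.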

How the data were processed

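Per the labels' protocols, 2 ug of total liver RNA per animal gave the biotinylated cRNA for an Affymetrix array. The deposited table holds the authors' processed value (here a score) for 31099 probe sets on 12 arrays, with 0 missing. How the values were summarized and normalized is not given in the sources used here. Across the arrays a probe set had a median SD of 7.14e-06. Array medians lay between 7.36619 and 7.36632, and standardized deviations correlated between arrays from -0.36 to 0.18.

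Of the probe sets, 20826 had 1 symbol in the platform annotation, updated through RefSeq, 436 had several and 9831 had none. The 57 control probe sets were left out of the tests. Diets, each array labelled a biological replicate, were tested with limma 3.58.1 under R 4.3.3 (a linear model with eBayes and an intensity trend, two-sided, prior degrees of freedom 0.680), adjusted over all 20826 probe sets. The exact permutation used 924 arrangements and cannot give a p under 0.002165. Intervals of g are 95% intervals from the noncentral t. Correlations used 100000 two-sided permutations (within diets where diet was removed), adjusted over the other 20825 probe sets for each readout. Lists used the brightest probe set per gene. The limma and permutation code was first tested on simulated data.

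Named genes were the members and readouts, the 3 genes most like each member by r, and the 2 genes farthest from 0 of each pathway list besides a few chosen ones. The members and lists were chosen with earlier results of these data known. Same-numbered animals correlated from -0.04 to 0.12, with 1 of 6 pairs over 0.1, so the numbers were not taken as pairs. Alternatives were quantile normalization, median centring, a filter on the lowest 30% of probe sets, the brightest probe set per gene, no trend, exact permutation, the replicate block, Spearman, diet removed and arrays left out. The number of arrays limits the precision.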

Additional observations from a re-analysis of the deposited data

Results flagged for a closer look

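In 3 of 18 combinations of a gene and a diet, 1 animal lay far from the other 5, where chance flags about 1 in 20 (0.9 of 18). In the sugar mix group Sult1b1 was at -1.45 in replicate 6, with the next animal at 0.33. Sult1c2 was at -2.15 in sugar mix replicate 1, with the next at -0.30. Cyp2c11 was at -2.71 in sugar mix replicate 2, with the next at -0.06. Values are in SD units over the 12 livers.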

How the results depend on the processing

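No alternative called a member or any other probe set between the diets (0 in each), or with either readout. Direction turned in 18 of the recomputed values. The g of Sult2a1 became 0.21 under quantile normalization and 0.15 under median centring. With single arrays left out, g ran from -0.41 to 0.17 for Sult1a1, from -0.48 to 0.18 for Sult2a1 and from -0.67 to 0.0262 for Sult2a2. The r with Cyp2c11 then ran from -0.0810 to 0.55 for Sult1b1 and from -0.30 to 0.11 for Sult2a1, and the r with Cyp2c12 from -0.29 to 0.21 for Sult1a1 and from -0.41 to 0.30 for Sult2a1. With Cyp2c11, r of Sult1c2 became -0.0228 with diet removed and r of Sult2a1 became 0.0203 under median centring. Without the 2 farthest livers, r with Cyp2c11 became 0.0952 for Sult2a1 and 0.0461 for Sult2a2, and r with Cyp2c12 became 0.29 for Sult1a1 and 0.32 for Sult2a1. The r of Sult1a1 with Sult1b1 was 0.33 without the 3 low livers. The cause was not tested. Sult1a1 and Sult1b1 were constant under quantile normalization and gave no value. No other probe set of a readout had 1 symbol, so that alternative was not run.

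With the replicate number as a block, 0 members were called. The diet difference over the residual SD of that fit, which is not the same measure as g, was 1.26 for Sult1c3 and 1.69 for Sult1c2. Of the 6 sugar mix animals, 0 had the maple syrup animal of the same number as their best match among the maple syrup animals. In all, 439 of the recomputed values, counts of calls among them, were labelled as kept and 1 moved. For g and for r with a readout this label reads only the sign and the call, so it does not measure a change in size. For example, r of Sult1e1 with Cyp2c12 counts as kept at -0.01 without the 2 farthest livers, against -0.56 over all livers.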
